A study of Mus musculus with 12 samples.

Results

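Definitive endoderm is the germ layer that lines the future gut, liver, pancreas and lungs, and SOX17 is a transcription factor that marks it as it leaves the primitive streak. The comparison described here set cells sorted as SOX17+ against the undifferentiated mouse embryonic stem cells (mESC) of the same line, and it was read across metabolism, transport across membranes, chromatin and secreted proteins rather than across lineage markers. It used 6 of the 12 poly(A) RNA-seq libraries of the study, 3 of SOX17+ cells and 3 of mESC, and 16097 of the 54446 genes in the deposited table, namely those with at least 1 TPM (a length-corrected share of a library's transcripts) in 3 or more of the 12 libraries. The other 6 libraries, 3 of T+ and 3 of SOX17+/T+ cells, were in the same model fit, and the T+ cells, sorted by a reporter of the mesoderm factor T, were used as a second differentiated population.

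All cells were of E14, a mouse ES cell line that can form every tissue of the embryo. The mESC were kept on gelatin and irradiated primary mouse embryonic fibroblasts, called feeders, in medium with serum and LIF, a cytokine that holds these cells in an undifferentiated state. The SOX17+ cells were differentiated from them and sorted on reporter expression, and the labels give neither the differentiation medium nor its length. They name the SOX17+, T+ and SOX17+/T+ populations as sorted and do not name the mESC, so sorting went with differentiation. Whether replicates were separate cultures is not stated, and each p-value therefore covers only the spread seen among these libraries, which may be technical. A group of cells that is rarer and a group with less RNA per cell cannot be told apart in bulk RNA.

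The reporter gene checked the labels. Sox17 was at 0.798, 0.484 and 0.632 TPM in the 3 libraries of mESC and at 243, 211 and 235 TPM in the SOX17+ libraries. T was at 0.65, 0.618 and 0.673 TPM in mESC and at 2.27, 1.86 and 2.84 TPM in SOX17+, against 127 ± 33.1 TPM (SD, n = 3) in T+ cells. With a pseudocount of 5 the rise of T was not called. Of the 14 definitive endoderm markers tested, 11 were at least 2-fold higher in SOX17+ cells, and of the 14 markers of undifferentiated ES cells, 13 were at least 2-fold lower. The SOX17+ libraries also held RNA of blood, vessel and mesoderm genes. Primitive blood markers summed to between 117 and 273 TPM, against 7.81 to 9.6 TPM in mESC. Endothelial markers summed to between 158 and 181 TPM, against 48.7 to 51.3 TPM. Mesoderm markers summed to between 322 and 349 TPM in SOX17+, against 123 to 131 TPM in mESC and 1202 to 1287 TPM in T+. A large part of these sums was 1 gene, Hand1, at 683 ± 44.5 TPM in T+ cells and lower in SOX17+ by a log2 difference of -1.36 ± 0.07. Of the 12 mesoderm markers tested, 5 were at least 2-fold higher in SOX17+ than in mESC and 4 lower, and all 12 were at least 2-fold lower than in T+.

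A gene is said here to have risen or fallen when its Benjamini-Hochberg adjusted p from limma was below 0.05, and most genes did: 85.4% were called, 35.4% higher and 50% lower in SOX17+ cells. A change of at least 2-fold was therefore asked of every count below. Of all tested genes, 11% were called and at least 2-fold higher and 20.4% were called and at least 2-fold lower, the libraries of both groups did not overlap for 86.1%, and each list is read against those shares. The median gene stood at a log2 fold change of -0.18, which moved to -0.04 with median-of-ratios scaling, to 0.05 with quantile normalization and to -0.16 with TPM rescaled without mitochondrially encoded genes. The share of calls that were higher in SOX17+ was 41.5% as deposited and 48.2%, 52.4% and 42.6% under those scalings. Fold changes are differences of log2(TPM + 1), given with their standard error, and understate the change of low genes.

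RNA of fibroblast marker genes was higher in the mESC libraries, whose cells grew on feeders. The 20 feeder fibroblast markers, among them the collagens Col1a1 and Col3a1 and the contractile genes Acta2 and Tagln, summed to 3354, 4185 and 4000 TPM in mESC replicates 1, 2 and 3, to between 108 and 116 TPM in SOX17+ and to between 153 and 173 TPM in T+ cells. All 20 fell by at least 2-fold, and S100a4 and Lum were listed at 0 in every SOX17+ library. Feeder RNA and stem cell RNA of a gene cannot be told apart in these libraries. A longer list of 200 genes abundant in fibroblasts, which holds those 20, had 118 of its 185 tested genes at least 2-fold lower and 19 higher; both together are called the fibroblast lists. The feeder sum was lower in mESC replicate 1, at 0.82 of the mean of replicates 2 and 3, which gave a second reading that was chosen after the values were seen: the same ratio for each gene that fell. The median ratio was 0.827 over the 19 feeder markers with at least 5 TPM in mESC, 1.02 over the 14 ES cell markers and 1.02 over all 10991 tested genes at that level. Because the feeder sum led to the choice of replicate 1, the low median of the feeder markers was set in advance.

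The share of low ratios differed by area. Among genes that fell at least 2-fold and lie outside the fibroblast lists, a ratio under 0.9 was found for 3 of 67 chromatin genes, 4 of 46 transporter genes, 9 of 65 metabolism genes and 13 of 50 secreted factor genes, that is 4.48%, 8.7%, 13.8% and 26%. Over all genes at that level the share was 7.7%, and over all genes that fell at least 2-fold outside those lists it was 229 of 2318, 9.88%. Among the 73 secreted factor genes that fell and do belong to the fibroblast lists it was 67.1%. The falling genes of those lists in other areas were few, with 1 of 3 metabolism, 0 of 5 transporter and 0 of 1 chromatin genes under 0.9. The fibroblast lists also hold the feeder markers whose sum led to the ratio, so their shares are not independent of that choice. The ratio rests on 1 library against 2 and moves with anything else that sets replicate 1 apart, so a single gene's ratio is a description.

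**Figure D1:**
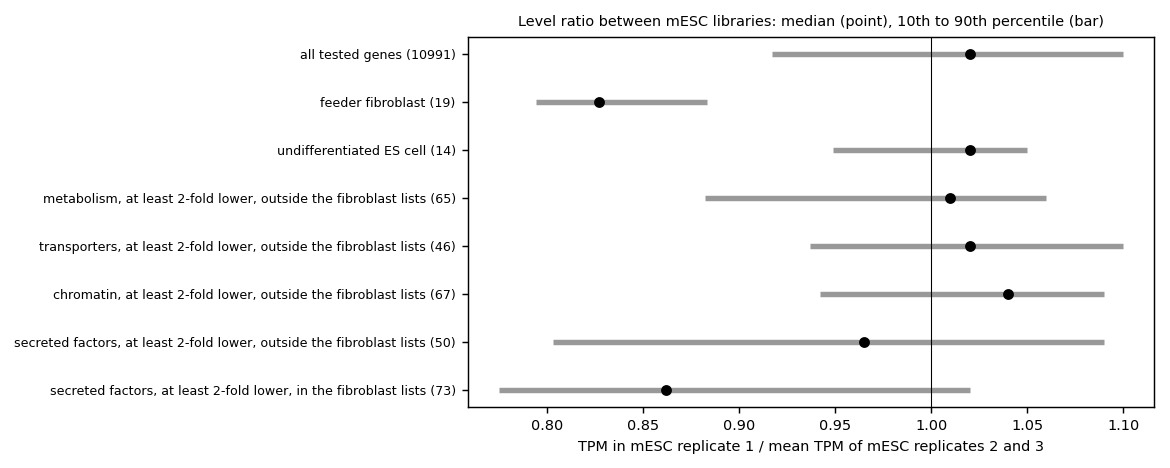
Ratio of TPM in mESC replicate 1 to the mean of mESC replicates 2 and 3 (x axis, no unit), for genes with at least 5 TPM in mESC; points are medians and bars run from the 10th to the 90th percentile over genes, with the number of genes in parentheses. Feeder markers have a median of 0.827 and secreted factor genes of the fibroblast lists 0.862, while ES cell markers and the falling transporter genes outside those lists stand at 1.02. Replicate 1 was chosen for its low feeder sum, so the low feeder median was set in advance, and the fibroblast lists hold the feeder markers. Falling metabolism, transporter and chromatin genes of the fibroblast lists are not drawn.

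Of 495 metabolism genes tested, 95 were at least 2-fold higher and 80 at least 2-fold lower in SOX17+ cells, and of 396 transporter genes 82 were higher and 88 lower. Of 302 chromatin genes 22 were higher and 72 lower, 7.28% and 23.8% against the 11% and 20.4% of all tested genes, with a median log2 fold change of -0.39. Secreted factors had 96 of 401 higher and 167 lower, with a median of -0.47. Without the genes of the fibroblast lists, secreted factors had 87 of 276 higher and 84 lower, and their median was 0.18. The corresponding counts were 91 and 74 of 479 for metabolism, 78 and 83 of 385 for transporters and 21 and 71 of 299 for chromatin.

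**Figure D2:**
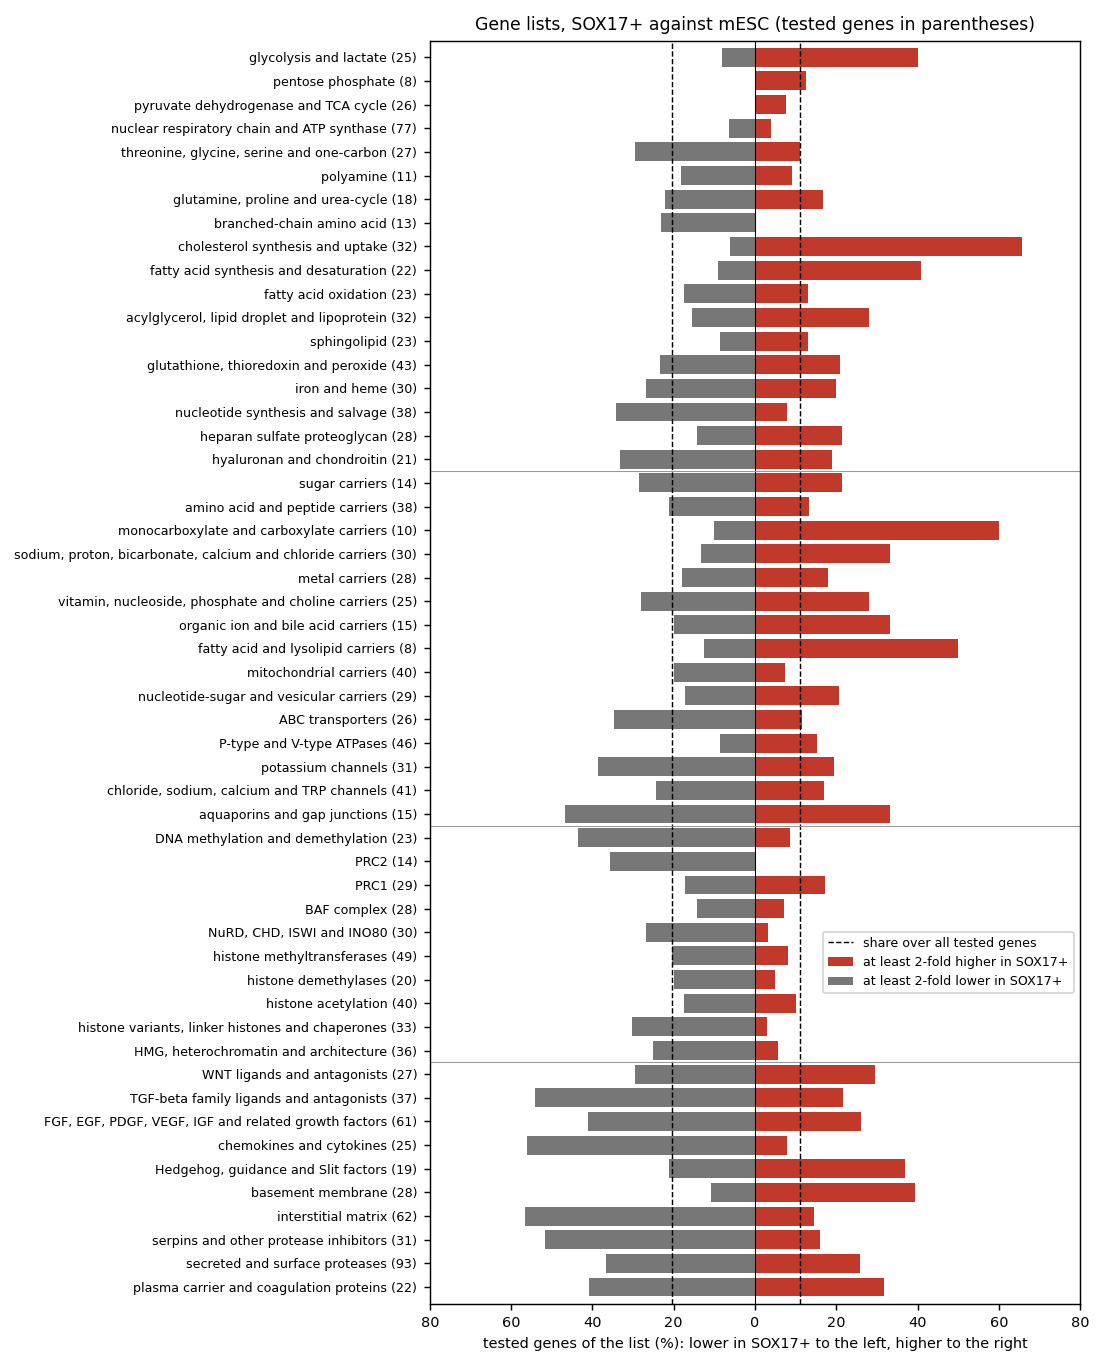
Share of tested genes of each list (x axis, %) that were called and at least 2-fold higher (red, right) or lower (grey, left) in SOX17+ against mESC; dashed lines are the shares over all tested genes, 11% and 20.4%. Cholesterol synthesis and uptake has the longest bar to the right among the 53 lists, 21 of 32 genes, and the chromatin lists lie mostly to the left.

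Genes of cholesterol synthesis and uptake had a larger share at least 2-fold higher than any other of the 53 lists. Cells make cholesterol from acetyl-CoA through a long chain of enzymes, take it up from lipoproteins, and switch both routes on together through the SREBP factors when sterol in the endoplasmic reticulum is low. Of the 32 genes of cholesterol synthesis and uptake, all of them tested, 21 were at least 2-fold higher in SOX17+ cells, 8 more were higher by less, and the 3 that fell were Abcg1, Abca1 and Scap. The median log2 fold change was 1.28. The list summed to between 1472 and 1483 TPM in mESC, to between 2750 and 3060 TPM in T+ and to between 3869 and 4220 TPM in SOX17+ cells.

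The stretches before the starts of these genes often held the same short run of letters. The factor NF-Y, which works beside SREBP at sterol genes, binds CCAAT, and the 250 bases before the start held CCAAT on either strand in 19 of the 22 list genes with a RefSeq promoter entry, 86.4%, against 41.2% of the 10690 tested genes with an entry. The share was 57.9% of 19 genes of fatty acid synthesis and desaturation, 48% of 25 of glycolysis and lactate, 72.7% of 22 of threonine and one-carbon metabolism and 35.3% of 34 of nucleotide synthesis. The sterol-element letters TCACNCCAC were found in 1 of the 22, Hmgcs1, against 1.28% of tested genes with an entry. A match is a description of the letters and not of a bound site. The last 150 bases before the start are shown for 3 list genes that were at least 2-fold higher, to show how these letters lie (RefSeq, GRCm38.p6, each 5′ to 3′ on the gene's strand, no overlap between the matches; capitals mark CCAAT, its reverse complement ATTGG, or TCACNCCAC). They are Hmgcs1 (chr13:119690201-119690350, plus strand), Mvd (chr8:122443423-122443572, minus strand) and Nsdhl (chrX:72918371-72918520, plus strand). Each has 1 promoter entry, and its stretch holds a match and lies outside the gene's interval in the deposited table. The stretches shown hold 2 matches each, and another list gene that met these conditions, with 1 match, is not printed. Because a match was required, they do not show how often the letters occur.
Hmgcs1: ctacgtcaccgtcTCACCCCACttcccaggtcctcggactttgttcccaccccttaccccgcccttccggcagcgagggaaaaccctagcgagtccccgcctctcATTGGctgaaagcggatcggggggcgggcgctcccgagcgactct
Mvd: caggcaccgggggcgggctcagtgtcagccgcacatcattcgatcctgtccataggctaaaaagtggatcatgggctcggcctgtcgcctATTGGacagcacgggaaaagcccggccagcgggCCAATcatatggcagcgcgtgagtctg
Nsdhl: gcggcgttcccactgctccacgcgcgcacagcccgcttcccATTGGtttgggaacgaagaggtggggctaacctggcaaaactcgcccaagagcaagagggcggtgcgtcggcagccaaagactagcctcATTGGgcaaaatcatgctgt

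By role, the early enzymes rose with the late ones. Hmgcs1, which makes HMG-CoA, was at 126, 123 and 123 TPM in mESC and at 379, 372 and 458 TPM in SOX17+ cells, a log2 fold change of 1.68 ± 0.12 (adjusted p = 1.6e-07). Fdps, which makes farnesyl pyrophosphate, rose from a mean of 161 to 401 TPM, and Dhcr7, which closes the pathway, from 28.2 to 136 TPM. Mvd and Nsdhl, whose upstream stretches are printed above, rose from 35.3 to 99.7 TPM and from 20 to 54.7 TPM.

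Genes that sense, store and move sterol changed in both directions. Insig1, which holds the SREBP complex back in the endoplasmic reticulum, was at 39.9, 39 and 40.6 TPM in mESC and at 215, 216 and 236 TPM in SOX17+ cells. The groups did not overlap, and Insig1 was also higher than in T+ cells by a log2 fold change of 1.08. Soat1, which esterifies cholesterol for storage, rose from 17.8 to 142 TPM, and the lysosomal exporters Npc1 and Npc2 from 19.2 to 95 and from 75.3 to 288 TPM. Scap, which escorts SREBP, was among the falls, as were the exporters of the plasma membrane: Abcg1 fell from 10.8 to 1.19 TPM, and Abca1 from 5.09 to 0.405 TPM, the latter being in the fibroblast lists. Of the 32 genes, 2 were at least 2-fold higher and 0 at least 2-fold lower in SOX17+ than in T+ cells, where 4.95% and 3.7% of all genes were.

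Fatty acid synthesis went the same way. Of 22 genes tested 9 were at least 2-fold higher and 2 lower, with a median of 0.68. Several desaturases, which put double bonds into fatty acids, rose: Scd1 was at 30.5, 29.9 and 28.7 TPM in mESC and at 209, 201 and 204 TPM in SOX17+, and Scd2, the more abundant by TPM, rose from 189 to 794 TPM. Fads2 and Fads1, which make the long polyunsaturated chains, rose from 43.6 to 217 and from 42.8 to 168 TPM, while Fads3 fell from 14.4 to 3.56 TPM with a ratio between mESC libraries of 0.85. The acyl-CoA synthetase Acsl3 rose from 25.3 to 178 TPM, on the log2 scale the largest rise of the list at 2.77 against 2.74 for Scd1, and Fasn, the synthase itself, by less than 2-fold from 118 to 199 TPM.

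Entry of long fatty acids into mitochondria showed a large fall in 1 gene. Carnitine palmitoyltransferase 1 is the gate of fatty acid oxidation, and its general form Cpt1a was at 24.7, 26 and 25.6 TPM in mESC and at 0.259, 0.269 and 0.247 TPM in SOX17+ cells (log2 fold change -4.39 ± 0.07, adjusted p = 6e-15). All SOX17+ libraries lay under all mESC libraries, and T+ cells had 0.761 ± 0.12 TPM. The related Cpt1c, a form of the endoplasmic reticulum known from brain, was not called as deposited, at 17.7 and 20.4 TPM (log2 fold change 0.19, and 0.35 with an adjusted p of 0.0024 from limma after median-of-ratios scaling). Its share of the summed TPM of both genes went from 41% ± 1.18 to 98.7% ± 0.109 (SD, n = 3). Cpt1b, the muscle form, rose from 0.692 to 5.59 TPM and was at 16.1 TPM in T+ cells. Slc25a20, which carries acylcarnitine inward, fell from 27 to 7.54 TPM, and Hadhb of the trifunctional protein from 76.3 to 23.3 TPM. Yet 3 of the 23 genes of fatty acid oxidation were at least 2-fold higher and 4 lower, shares near those of all genes, and the list's median changed sign with the scaling (-0.01 as deposited, 0.15 with median-of-ratios scaling).

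Lipid carriers and lipases changed in both directions. Apoe, the main apolipoprotein of the list, rose from 248 to 917 TPM although it is in the fibroblast lists, and Scarb1, the HDL receptor, from 19.2 to 118 TPM. Mttp, which loads lipid onto lipoproteins, rose from 4.07 to 14.3 TPM. Apoc1 fell from 48.4 to 7.26 TPM, and the fatty acid binding proteins moved apart: Fabp5 rose from 35.7 to 102 TPM while Fabp3 fell from 35.9 to 8.89 TPM. Mgll, the monoacylglycerol lipase, fell from 25.7 to 0.142 TPM. Its ratio between mESC libraries was 0.829, close to that of the feeder markers, and the part of feeder RNA in this fall was not tested.

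Genes of glycolysis reached a similar summed TPM in SOX17+ and T+ cells, whereas the carriers Slc2a3, Slc2a1 and Slc16a1 were at least 2-fold higher in SOX17+ than in T+ cells. Glycolysis turns glucose into pyruvate, which lactate dehydrogenase reduces to lactate for export. Of 25 genes of glycolysis and lactate 10 were at least 2-fold higher than in mESC and 2 lower, and the list summed to between 12697 and 12992 TPM in mESC, to between 22217 and 24807 TPM in SOX17+ and to between 23260 and 25972 TPM in T+ cells. Against T+ cells 0 of the 25 were at least 2-fold higher and 1 was lower. Pgk1, an ATP-forming step, was at 420, 433 and 434 TPM in mESC and at 2031, 2073 and 1781 TPM in SOX17+ cells. Ldha, Pgk1 and other abundant genes named here, Fth1 among them, have processed copies in the genome, with which reads can be shared.

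Within the pathway the liver and platelet forms of phosphofructokinase moved apart. This enzyme commits glucose to glycolysis, and its liver form Pfkl rose from 72.7 to 287 TPM while the platelet form Pfkp fell from 77.1 to 40.8 TPM. The Pfkp share of both was 52.3%, 51.2% and 51.1% in the mESC libraries and 12.9%, 12.9% and 11.4% in the SOX17+ libraries. The muscle form is not part of this share. Lactate dehydrogenase moved toward its A form: Ldha rose from 1467 to 4740 TPM and Ldhb fell from 143 to 100 TPM. Aldoc, a second aldolase, rose from 4.63 to 79.3 TPM, and it is in the fibroblast lists.

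A pair of glucose carriers, Slc2a3 and Slc2a1, was much higher in SOX17+ cells than in mESC or T+ cells. Slc2a3, the high-affinity glucose carrier GLUT3, was at 369, 366 and 356 TPM in mESC and at 2859, 2844 and 2505 TPM in SOX17+, with 532 ± 86.3 TPM in T+ cells. The log2 fold change was 2.90 ± 0.15 against mESC (adjusted p = 4.9e-08) and 2.37 ± 0.15 against T+. Slc2a1, the widespread carrier GLUT1, stood at 268, 260 and 271 TPM in mESC and at 1754, 1740 and 1418 TPM in SOX17+, and was higher than in T+ cells by a log2 fold change of 1.58, and it is in the fibroblast lists. Together the 14 sugar carriers tested gave 3 rises and 4 falls of at least 2-fold, and against T+ cells 2 were at least 2-fold higher and 1 lower, with a median of -0.15. Among the falls, Slc5a11, a sodium-coupled inositol carrier, was at 9.12 TPM in mESC and listed at 0 in every SOX17+ library.

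Slc16a1 encodes MCT1, which moves lactate and pyruvate with a proton. It was at 85.9, 84.5 and 87.5 TPM in mESC and at 1217, 1153 and 1177 TPM in SOX17+ cells (log2 fold change 3.77 ± 0.05, adjusted p = 1.3e-15), and T+ cells were at 153 ± 4.04 TPM. The lactate exporter MCT4, encoded by Slc16a3, rose from 48.9 to 467 TPM, and was 0.60 higher than in T+ on the log2 scale. It is in the fibroblast lists, yet rose. Of the 10 carboxylate carriers tested 6 were at least 2-fold higher than in mESC, and 5 of the 10 also at least 2-fold higher than in T+ cells. The sulfate carrier Slc13a4 rose from 0.522 to 29.7 TPM.

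**Figure D3:**
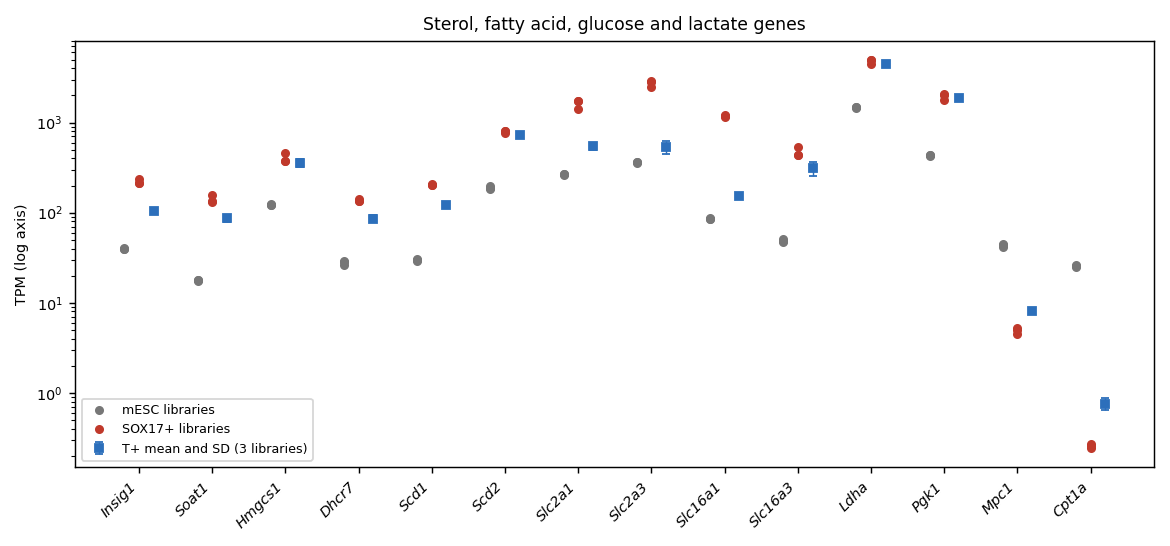
TPM on a log axis for 14 genes of sterol, fatty acid, glucose and lactate handling; grey and red points are the 3 mESC and 3 SOX17+ libraries, blue squares the T+ mean with its SD over 3 libraries. Slc2a3 and Slc16a1 are far higher in SOX17+ than in T+ cells, Ldha and Pgk1 are level in both, and Mpc1 and Cpt1a are lower in SOX17+ than in mESC.

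At the mitochondrial door the RNA of 1 pyruvate carrier subunit went the opposite way to Slc16a1, and pyruvate itself was not measured. Mpc1, a subunit of the mitochondrial pyruvate carrier, was at 43.3, 44.8 and 41.2 TPM in mESC and at 4.49, 4.98 and 5.24 TPM in SOX17+ cells (log2 fold change -2.90 ± 0.06, adjusted p = 1.1e-13). Slc25a12, an aspartate and glutamate carrier of the same membrane, fell from 20.3 to 3.65 TPM. The ADP/ATP carriers came closer to each other in TPM: Slc25a5 fell from 1162 to 470 TPM and Slc25a4 rose from 277 to 412 TPM, which took the Slc25a5 share from 80.8% ± 0.445 to 53.3% ± 0.672. Of 40 mitochondrial carriers tested 3 were at least 2-fold higher and 8 lower, 7.5% and 20% against the 11% and 20.4% of all tested genes.

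Genes of the TCA cycle and the nuclear genes of the respiratory chain seldom changed by 2-fold, while mitochondrially encoded genes rose by less than 2-fold. Of 26 genes of pyruvate dehydrogenase and the TCA cycle 2 were at least 2-fold higher, Idh2 (59.8 to 163 TPM) and Aco1 (34.4 to 79.1 TPM), and 0 were lower. Of 77 nuclear genes of the respiratory chain and ATP synthase 3 were at least 2-fold higher and 5 lower, and their median kept no sign across scalings (-0.11 as deposited, 0.06 with median-of-ratios scaling). Of the 13 mitochondrially encoded protein genes 12 rose and 1 fell, all by less than 2-fold, with a median of 0.43 as deposited and 0.09 after quantile normalization. They summed to between 37771 and 40632 TPM in mESC and to between 53378 and 57654 TPM in SOX17+ cells, or from between 4.01% and 4.34% to between 5.71% and 6.18% of all TPM. Among the nuclear genes the 3 rises were alternative subunits. Cox4i2, a form of a cytochrome oxidase subunit linked to low oxygen, rose from 0.97 to 27.7 TPM, and Ndufa4l2 from 1.45 to 32.3 TPM. Cox6b2, the testis form, went from 34.8 to 73.3 TPM. Cox4i2 and Ndufa4l2 were higher still in T+ cells, at 68.7 and 69.9 TPM. The testis cytochrome c Cyct fell from 7.71 TPM and was listed at 0 in every SOX17+ library.

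Enzymes of amino acid metabolism changed in both directions, with some large falls. Mouse ES cells are known for a high flux through threonine dehydrogenase, which feeds glycine and one-carbon units. Tdh was at 351, 357 and 353 TPM in mESC and at 2.22, 1.43 and 1.88 TPM in SOX17+ cells (log2 fold change -6.97 ± 0.10, adjusted p = 3.2e-15). Of the 27 genes of threonine, glycine, serine and one-carbon metabolism 8 were at least 2-fold lower and 3 higher, and in all 17 fell and 9 rose. Cth and Cbs, which make cysteine from methionine, fell from 123 to 12.5 and from 16.4 to 1.34 TPM, and Mat2a, which makes the methyl donor S-adenosylmethionine, from 249 to 68.7 TPM. The ratios between mESC libraries were 1.06 for Cth and 1.04 for Cbs. Gldc, the glycine decarboxylase that sits downstream of Tdh, rose from 100 to 270 TPM, and T+ cells had 38.8 TPM.

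Branched-chain and urea-cycle enzymes showed single large falls. Bcat1, the cytosolic branched-chain transaminase, was at 286, 290 and 280 TPM in mESC and at 18.4, 21.1 and 19.9 TPM in SOX17+ cells. Its mitochondrial partner Bcat2 fell less, from 75.1 to 32.7 TPM, so that the Bcat1 share of both dropped from 79.2% ± 0.366 to 37.7% ± 2.76. Ass1, which makes argininosuccinate, fell from 319 to 48 TPM, and the next enzyme Asl rose from 23.6 to 57.6 TPM. Aldh18a1 and Oat, which both yield a precursor of proline, rose from 58.8 to 136 TPM and from 72 to 207 TPM. Of 11 polyamine genes 2 fell at least 2-fold, Smox and Srm, and Odc1, the first enzyme, was at 816 and 542 TPM.

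Nucleotide synthesis and salvage had 13 of 38 genes at least 2-fold lower and 3 higher. Upp1, which splits uridine, was at 390, 358 and 365 TPM in mESC and at 12.3, 12.8 and 11.5 TPM in SOX17+ cells, and Prps1, which makes the ribose donor of all nucleotides, fell from 201 to 18.5 TPM. The ratio between mESC libraries was 1.08 for Upp1. The salvage enzymes Hprt, Pnp and Ada fell from 248 to 90.8, from 119 to 41.4 and from 15.4 to 1.52 TPM, and the ribonucleotide reductase subunit Rrm2 from 243 to 98 TPM. Exceptions were Adssl1, which rose from 3.15 to 29.4 TPM, and Paics, at 511 and 514 TPM, which did not pass the test as deposited and was 0.18 higher on the log2 scale and called after median-of-ratios scaling. Adssl1 was higher still in T+ cells, at 93.4 TPM. Of the 6 nucleoside carriers of the Slc28 and Slc29 families tested, 4 fell and 2 rose. The falls of at least 2-fold were in Slc28a1 and Slc29a1, which went from 21 to 0.0478 and from 175 to 34 TPM.

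Antioxidant enzymes moved in both directions. The glutathione peroxidases Gpx1 and Gpx4 fell from 911 to 341 and from 681 to 220 TPM, and the secreted Gpx3 and the gut form Gpx2 rose from 39.4 to 187 and from 7.82 to 41.9 TPM. Gpx2 was at 1.13 TPM in T+ cells, a log2 difference of 4.35 ± 0.21. The glutathione transferases Gsto1 and Gsta4 fell from 385 to 16.7 and from 479 to 88 TPM, with ratios between mESC libraries of 0.938 and 1.02. Gsta3, with a ratio of 0.644, fell from 6.68 to 0.044 TPM. Over the 43 genes of glutathione, thioredoxin and peroxide handling 9 were at least 2-fold higher and 10 lower, and 5 of the 43 belong to the fibroblast lists.

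Of 30 iron and heme genes 6 were at least 2-fold higher and 8 lower. Ferritin heavy chain, encoded by Fth1, stores iron in the cytosol, and its TPM was 1210, 1187 and 1200 in mESC and 4739, 5069 and 4736 in SOX17+ cells (log2 fold change 2.01 ± 0.03, adjusted p = 2e-15). T+ cells were at 1707 ± 55.2 TPM, a log2 difference of 1.51 ± 0.03. Slc40a1, the iron exporter ferroportin, rose from 2.14 to 10.9 TPM and was at 2.24 TPM in T+ cells, and Heph, the oxidase that works with it, from 0.214 to 8.42 TPM. Among genes of iron uptake the transferrin receptor Tfrc fell from 106 to 45.1 TPM, and the ferrireductases Steap3, Steap1 and Steap2 from 50.6 to 0.403, from 34.6 to 1.78 and from 25.6 to 3.39 TPM. The ferritin light chain Ftl1 fell from 1958 to 1448 TPM, but its annotated pseudogene Ftl2-ps rose from 1554 to 2251 TPM, and reads of such copies can be shared. Primitive blood markers were also higher in SOX17+ than in T+ cells and differed between the SOX17+ libraries, with Hbb-bh1 at 51.9, 75.8 and 141 TPM. Fth1 and Slc40a1 varied by less between those libraries, with Slc40a1 at 10.6, 10.8 and 11.2 TPM. The part of blood cells in these rises was not tested.

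Among metal and ion carriers the largest rise was in Slc39a8, a carrier of zinc and manganese. It was at 1.21, 1.33 and 1.41 TPM in mESC and at 110, 111 and 118 TPM in SOX17+ cells (log2 fold change 5.62 ± 0.06, adjusted p = 2.4e-16), and T+ cells had 21.1 ± 1.25 TPM. The related zinc carriers Slc39a5 and Slc39a4, the latter the carrier of dietary zinc, stood at 9.52 and 35.4 TPM in SOX17+, with Slc39a5 listed at 0 in all mESC libraries and Slc39a4 at 14.8 TPM. The copper pump Atp7b rose from 0.7 to 12.1 TPM and the copper importer Slc31a1 from 27.8 to 82.5 TPM. Slc39a14 fell from 34.3 to 7.49 TPM and is in the fibroblast lists. Of 28 metal carriers 5 were at least 2-fold higher and 5 lower.

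Acid and salt handling rose more often than it fell. Of the 30 carriers of sodium, protons, bicarbonate, calcium and chloride 10 were at least 2-fold higher and 4 lower. The sodium-proton exchanger Slc9a7 of the Golgi and endosomes rose from 0.215 to 5 TPM, and the bicarbonate carriers Slc4a4 and Slc4a7 from 1.7 to 8.76 and from 8.46 to 28.7 TPM. Outside all lists, the membrane-bound carbonic anhydrases that make bicarbonate at the cell surface were among the 15 largest rises. Car4 was at 7.88, 7.42 and 9.2 TPM in mESC and at 628, 635 and 634 TPM in SOX17+ cells, with 45.6 TPM in T+ cells. Car14 rose from 0.617 to 64.8 TPM and was at 74.6 TPM in T+ cells.

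Of 41 chloride, sodium, calcium and TRP channel genes 7 were at least 2-fold higher and 10 lower, and of 31 potassium channels 6 were higher and 12 lower. Trpv6, a calcium channel of absorbing epithelia, was at 0, 0.00904 and 0 TPM in mESC and at 15.7, 16 and 17.5 TPM in SOX17+ cells. Clcn5, a chloride-proton exchanger of endosomes, rose from 18.1 to 79.7 TPM, and the potassium channel Kcnk16 from 0.0474 to 13.2 TPM. The falls included Cacng7, a subunit of neuronal calcium channels and glutamate receptors, from 59.1 to 0.564 TPM, and the potassium channel Kcnk5, from 30.7 to 7.59 TPM.

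Gap junction genes, which encode the connexins that couple neighbouring cells, changed in both directions. Gja1 rose from 98.3 to 423 TPM despite its place in the fibroblast lists, and was at 153 TPM in T+ cells. Gjb5 fell from 22.6 to 2.02 TPM. The glycerol channel Aqp3 fell from 31.2 to 0.261 TPM. Of 15 aquaporin and gap junction genes tested 5 were at least 2-fold higher and 7 lower.

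Drug and organic ion carriers changed in both directions. The multidrug pumps Abcb1a and Abcb1b, which are close copies that can share reads, fell from 14.8 to 0.131 and from 13.9 to 0.865 TPM, and Abcc4 from 38.9 to 2.93 TPM. Of 26 ABC genes 9 were at least 2-fold lower and 3 higher. Slc22a23, an orphan organic ion carrier, was at 2.47, 2.55 and 2.51 TPM in mESC and at 59.2, 54.5 and 57.1 TPM in SOX17+ cells, with 5 TPM in T+. Spns2, which exports the lipid signal sphingosine 1-phosphate, rose from 1.27 to 20.4 TPM and stood at 0.787 TPM in T+ cells. Sphk1, a kinase that makes that signal, fell from 5.95 to 0.181 TPM with a ratio between mESC libraries of 0.879.

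Amino acid carriers changed in both directions. Slc7a3 and Slc7a1, both carriers of arginine and lysine, fell from 113 to 24.5 and from 51.4 to 13.6 TPM. Slc7a5, the large neutral amino acid carrier, did not pass the test as deposited, at 168 and 178 TPM, and was called 0.24 higher on the log2 scale after median-of-ratios scaling. Its relative Slc7a8 rose from 1.15 to 7.9 TPM. Of 38 genes tested 5 were at least 2-fold higher and 8 lower, close to the shares of all genes.

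Among the chromatin lists DNA methylation had the largest share of genes at least 2-fold lower. DNA methylation is laid down by DNMT3 enzymes, copied by DNMT1 and removed through TET enzymes. Of 23 genes tested 10 were at least 2-fold lower and 2 higher. Dnmt3l, a partner of the DNMT3 enzymes without catalytic activity, was at 309, 292 and 308 TPM in mESC and at 0.266, 0.145 and 0.262 TPM in SOX17+ cells (log2 fold change -7.96 ± 0.09, adjusted p = 4e-16). Zfp57, which protects methylated imprints, fell from 134 to 6.26 TPM. Dnmt3a fell from 75.8 to 15.8 TPM, with 1 mESC library at 48.3 TPM and the others at 92.1 and 87.1 TPM, while Dnmt3b did not pass limma's test as deposited at 156 and 158 TPM (adjusted p = 0.85) and was called 0.18 higher on the log2 scale after median-of-ratios scaling. Dnmt3b was higher than in T+ cells, where it was at 67.3 TPM, and Dnmt3a lower, where it was at 53.4 TPM.

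Among the demethylases Tet1 fell and Tet3 rose, and Tet1 remained the more abundant by TPM. Tet1 was at 69.5, 65.2 and 61.7 TPM in mESC and at 13.2, 9.52 and 12.3 TPM in SOX17+ cells, and Tet3 rose from 2.23 to 6.3 TPM. The Tet3 share of both was 3.29% ± 0.208 in mESC and 35.1% ± 0.865 in SOX17+ cells. Uhrf2 rose from 20.4 to 57.8 TPM. Trim28, the scaffold that Zfp57 recruits, fell from 1307 to 425 TPM.

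Genes of several Polycomb subunits fell. PRC2 methylates histone H3 and PRC1 compacts the marked chromatin. Of the 14 PRC2 genes 5 were at least 2-fold lower and 0 higher. Epop, an accessory subunit typical of ES cells, was at 434, 426 and 396 TPM in mESC and at 37, 36.2 and 34.1 TPM in SOX17+, with 36.8 TPM in T+ cells. The other accessory subunits Jarid2 and Mtf2 fell from 201 to 32.9 and from 194 to 34.3 TPM. Of the core, Eed fell from 246 to 51.3 TPM and Suz12 by less than 2-fold from 76.7 to 40.9 TPM, while the histone binder Rbbp7 rose from 793 to 1455 TPM.

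The share of 1 gene in the summed TPM of a pair of related genes was examined for 52 pairs, and the libraries of the groups did not overlap in 50. Libraries also did not overlap for 86.1% of all tested genes taken singly, and the pairs were chosen with earlier results known. The count therefore says little about these pairs. The exceptions were Cox7a2 with Cox7a1 and Sdc4 with Sdc1. In 15 of the 50 the more abundant gene of the pair changed.

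In PRC1 the chromodomain subunit changed from Cbx7 to Cbx2. Cbx7 was at 103, 102 and 94 TPM in mESC and at 5.9, 6.38 and 5.14 TPM in SOX17+ cells, and Cbx2 rose from 16.8 to 29.9 TPM. Thus the Cbx2 share of both went from 14.5%, 14.3% and 14.5% to 84.2%, 81.3% and 85.6% in the libraries. The polyhomeotic subunits did the same: Phc1 fell from 242 to 38.2 TPM, and the Phc2 share of both went from 14% ± 0.546 to 62.9% ± 1.76. Among the RING partners Pcgf5 rose from 8.71 to 48.8 TPM and Bmi1 from 7.26 to 17.8 TPM, and Pcgf6 fell from 49.3 to 25.8 TPM. Pcgf5 was at 7.81 TPM in T+ cells, a log2 difference of 2.54 ± 0.18, whereas Cbx7 and Epop differed by -0.14 ± 0.09 and -0.04 ± 0.04 between the same groups, which limma did not call.

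In the BAF complex, which slides nucleosomes with the ATPase Smarca4 or Smarca2, Smarca4 stood at 119 and 101 TPM, a fall of -0.23 on the log2 scale as deposited and 0.06, not called, after quantile normalization. Smarca2 rose from 3.14 to 15.3 TPM, a share of 2.57% ± 0.263 in mESC and of 13.1% ± 0.909 in SOX17+ cells. The Smarcd3 share over Smarcd1 rose from 13.7% ± 0.416 to 34.1% ± 1.67. Dpf1, a neuronal subunit, fell from 11.4 to 0.949 TPM, and Bicral from 42.1 to 5.67 TPM. The list's median changed sign with the scaling, -0.13 as deposited and 0.03 with median-of-ratios scaling. In NuRD the Mta1 share over Mta3 rose from 38.3% ± 1.04 to 70.2% ± 1.76. The remodellers Hells, Ino80 and Smarcad1 fell from 142 to 33, from 24.7 to 4.75 and from 116 to 26.8 TPM.

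**Figure D4:**
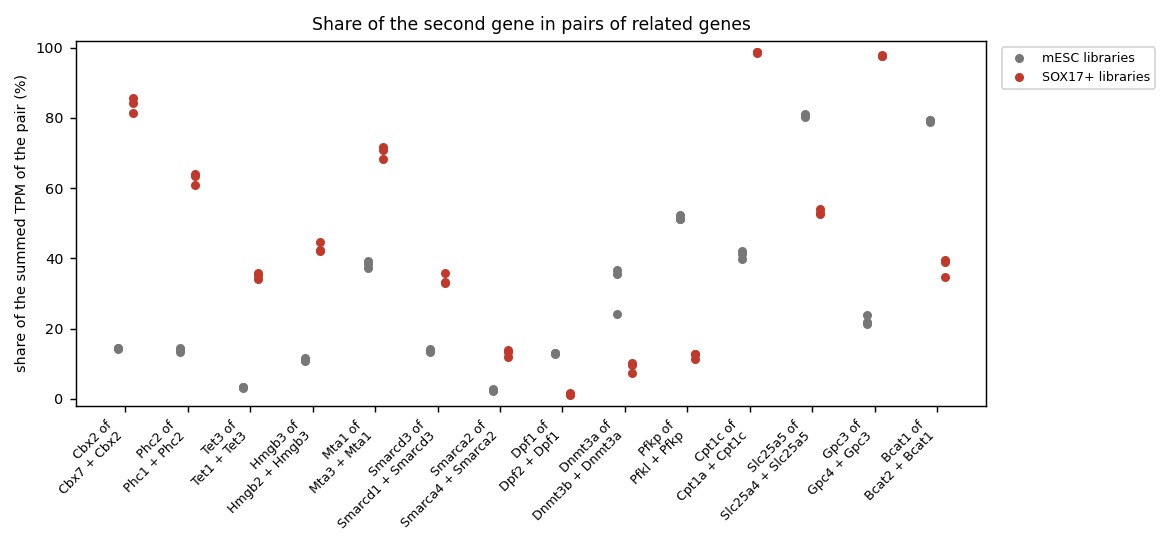
Share of the second gene in the summed TPM of 14 pairs of related genes (y axis, %); each point is 1 library, grey for mESC and red for SOX17+. The pairs were picked from the 52 examined. The libraries of the groups do not overlap in the 14 shown: Cbx2 goes from under 15% to over 81%, Gpc3 from under 24% to over 97%, and Dnmt3a, whose mESC libraries are spread most, falls.

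Histone-modifying enzymes changed in both directions. Of 49 histone methyltransferase genes 4 were at least 2-fold higher and 10 lower, and the share that was lower, 20.4%, was that of all tested genes. Prdm6, a repressor known from smooth muscle and heart, was at 0.121, 0.149 and 0.231 TPM in mESC and at 37.5, 40.5 and 36.4 TPM in SOX17+ cells, and T+ cells had 37.8 ± 2.17 TPM. Suv39h1, which writes the heterochromatin mark on histone H3, rose from 17.1 to 70.4 TPM. Of 40 acetylation genes 4 were higher and 7 lower by at least 2-fold, 17.5% for the latter. Kat6b, an acetyltransferase, fell from 68.6 to 3.25 TPM, Kat2b from 23.8 to 1.89 TPM and the deacetylase Sirt1 from 69.6 to 16.1 TPM. The deacetylases Hdac11 and Hdac7 rose from 1.44 to 22.7 and from 6.77 to 22.5 TPM.

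Genes of histones and architectural proteins changed in both directions. The linker histone H1f0, known to build up as cells leave the cycle, rose from 45.7 to 160 TPM, and the DNA repair variant H2afx fell from 738 to 258 TPM. Hmgb3 rose from 36.1 to 122 TPM, and its share over Hmgb2 from 11.2% ± 0.438 to 43.1% ± 1.45. Morc1, a germ-line silencer, was at 59.7, 60 and 58 TPM in mESC and listed at 0 in every SOX17+ library. Lmna, the nuclear lamina gene that differentiated cells usually gain, fell from 168 to 12.5 TPM. It is in the fibroblast lists with a ratio between mESC libraries of 0.913, and the part of feeder RNA in this fall was not tested.

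Of 61 growth factor genes of the FGF, EGF, PDGF, VEGF and IGF groups 16 were at least 2-fold higher and 25 lower, and 14 of those 25 are in the fibroblast lists. SOX17+ cells made RNA for insulin-like growth factor 2, a growth factor of early embryos: Igf2 was at 23.3, 26.2 and 26 TPM in mESC and at 1454, 1508 and 1563 TPM in SOX17+ cells (log2 fold change 5.85 ± 0.05, adjusted p = 1.7e-16), with 749 ± 45.3 TPM in T+. Its binding proteins Igfbp5 and Igfbp4 rose from 3.58 to 75.4 and from 6.67 to 57.7 TPM, and both are in the fibroblast lists. In T+ cells Igfbp5 was lower, at 10.6 TPM, and Igfbp4 higher, at 181 TPM. Kitl, the ligand of KIT on migrating germ and blood cells, rose from 2.87 to 65.7 TPM against 9.94 TPM in T+ cells. Tgfa, an EGF receptor ligand, rose from 0.714 to 23.6 TPM and Apela, a ligand of the apelin receptor, from 33.1 to 506 TPM. The heparin-binding factor Mdk rose from 203 to 907 TPM and was higher still in T+ cells, with a log2 difference of SOX17+ from T+ of -0.67 ± 0.04.

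Several ligands known from ES cells fell. Fgf4 was at 75, 74.1 and 74.9 TPM in mESC and at 0.0948, 0.0278 and 0.257 TPM in SOX17+ cells, and Fgf17 fell from 45 to 0.452 TPM. Nodal, the signal that induces endoderm, fell from 84.2 to 3.5 TPM, with 12.8 TPM in T+ cells, and its inhibitors Lefty1 and Lefty2 fell from 146 to 0.333 and from 60.5 to 0.225 TPM. Gdf3 fell from 95.4 to 0.0676 TPM. Of the activin subunits, Inhbb, at 40.1 TPM in mESC and listed at 0 in every SOX17+ library, is outside the fibroblast lists, and Inhba, which fell from 67.7 to 0.0405 TPM, is in them, at 60.9, 72.5 and 69.7 TPM in mESC replicates 1 to 3. Tgfb2 rose from 4.7 to 65.9 TPM and Bmp7, Bmp2 and Bmp5 stood at 20, 10.1 and 8.53 TPM in SOX17+ cells against 1.39, 0.364 and 0.0322 TPM in mESC. T+ cells had more of Bmp7, Bmp2 and Bmp5, at 44.2, 17.5 and 19 TPM. Of 37 TGF-beta family genes 8 were at least 2-fold higher and 20 lower, and 14 of the 37 are in the fibroblast lists.

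Of 19 Hedgehog, guidance and Slit genes 7 were at least 2-fold higher and 4 lower, and of 27 WNT ligands and antagonists 8 were higher and 8 lower. Ihh, a Hedgehog ligand of endoderm, was at 0.154, 0.284 and 0.292 TPM in mESC and at 21.6, 19.2 and 20.7 TPM in SOX17+, and T+ cells had 0.532 TPM. Shh was at 7.24 TPM in SOX17+, lower than the 20.4 TPM of T+ cells. Reln, a secreted guidance protein, rose from 0.304 to 34.7 TPM. The WNT antagonists Frzb and Wif1 rose from 2.92 to 77.4 and from 0.231 to 14.8 TPM, while Sfrp5 fell from 7.84 to 1.02 TPM and the ligand Wnt7b from 8.7 to 0.0697 TPM.

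Basement membrane genes rose at least 2-fold more often than they fell, and the falls in interstitial matrix were mostly of genes in the fibroblast lists. The basement membrane is the thin sheet under an epithelium, and of 28 of its genes 11 were at least 2-fold higher and 3 lower, with a median of 0.17, and outside the fibroblast lists 10 of 22 were higher and 2 lower. Frem1, Fras1 and Frem2, which form 1 complex that anchors epithelium, rose from 0.185 to 21.5, from 0.297 to 22.4 and from 2.62 to 42.8 TPM. The collagen IV chain gene Col4a1 was at 49.1, 63.2 and 62.1 TPM in mESC and at 229, 178 and 217 TPM in SOX17+, with 47.9 TPM in T+ cells. Nid1, a linker of the sheet that is in the fibroblast lists, fell from 132 to 19.9 TPM. Of 62 interstitial matrix genes 9 were at least 2-fold higher and 35 lower, and 29 of those 35 are in the fibroblast lists. Lox, which cross-links collagen, was at 225, 267 and 249 TPM in mESC and at 0.194, 0.106 and 0.091 TPM in SOX17+. Outside those lists 8 of 22 were at least 2-fold higher and 6 lower, with a median of 0.34 against -1.43 for the whole list. Among the 8 were the microfibril gene Fbn2, from 1.77 to 29.2 TPM, and the cartilage collagen gene Col9a3, from 1.89 to 27 TPM.

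The glypicans carry heparan sulfate and bind growth factors. Of 28 genes of heparan sulfate proteoglycans 6 were at least 2-fold higher and 4 lower. Gpc3 was at 27.9, 26.6 and 27.5 TPM in mESC and at 887, 834 and 882 TPM in SOX17+ cells, while Gpc4 was at 88.9, 98.5 and 97.8 TPM in mESC and at 21.7, 17.9 and 20.8 TPM in SOX17+. The log2 difference of SOX17+ from T+ cells was -0.44 ± 0.03 for Gpc3, which was thus higher in T+, and 1.58 ± 0.08 for Gpc4. The Gpc3 share of both went from 22.4% ± 1.36 to 97.7% ± 0.142. Of the syndecans, which also carry heparan sulfate at the cell surface, the Sdc1 share of Sdc4 and Sdc1 was 48.3% ± 1.42 in mESC and 45.4% ± 2.21 in SOX17+ cells, and the libraries overlapped. Gpc6 rose from 4.61 to 59.6 TPM. The hyaluronan receptor Cd44 fell from 163 to 12.9 TPM, and is in the fibroblast lists. Hapln1, which links hyaluronan to proteoglycans, stood at 18.2 TPM in SOX17+ and at 0.0194 TPM in mESC, of which 2 libraries were listed at 0.

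Of 93 secreted and surface protease genes 24 were at least 2-fold higher and 34 lower, and of 31 protease inhibitors 5 were higher and 16 lower. Prss8, a membrane-bound protease of epithelia, was at 2.12, 1.92 and 2.07 TPM in mESC and at 77.4, 75.8 and 78.3 TPM in SOX17+ cells, and Prss12 and the aminopeptidase Enpep rose from 0.415 to 41.4 and from 0.0529 to 14.1 TPM. Some inhibitors rose as well: Spink1, a trypsin inhibitor, from 80.7 to 663 TPM, and Spint2, an inhibitor of membrane proteases, from 125 to 316 TPM. Spink1 was at 10.4 ± 2.6 TPM in T+ cells, under the mESC level. The falls included the metalloprotease inhibitors Timp1 and Timp2, from 414 to 5.7 and from 165 to 8.3 TPM, both in the fibroblast lists.

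Of 25 chemokine and cytokine genes 14 were at least 2-fold lower and 2 higher, and 9 of the 14 are in the fibroblast lists. Some secreted genes that fell lie outside the fibroblast lists yet had a low ratio between mESC libraries. The feeder markers ran from 0.794 to 0.883 (10th to 90th percentile), above the ratios of Cxcl14, C1qa and Actg2. The chemokine Cxcl14 fell from 19.4 to 0.0216 TPM with a ratio of 0.767. The complement gene C1qa, a product of macrophages, was at 3.26, 7.04 and 5.25 TPM in mESC, a ratio of 0.531, and listed at 0 in every SOX17+ library. Outside all lists, the smooth muscle actin gene Actg2 fell from 105 to 0.118 TPM with a ratio of 0.668. Others did not have such a ratio: Hspb1, a small heat-shock protein, was at 890, 888 and 892 TPM in mESC and at 7.94 TPM in SOX17+, and Emp1 had a ratio of 0.95 on a fall from 302 to 0.663 TPM. Prss23 was between them, with a ratio of 0.914 and a fall from 173 to 1.26 TPM. The part of feeder RNA in each of these falls was not tested.

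**Figure D5:**
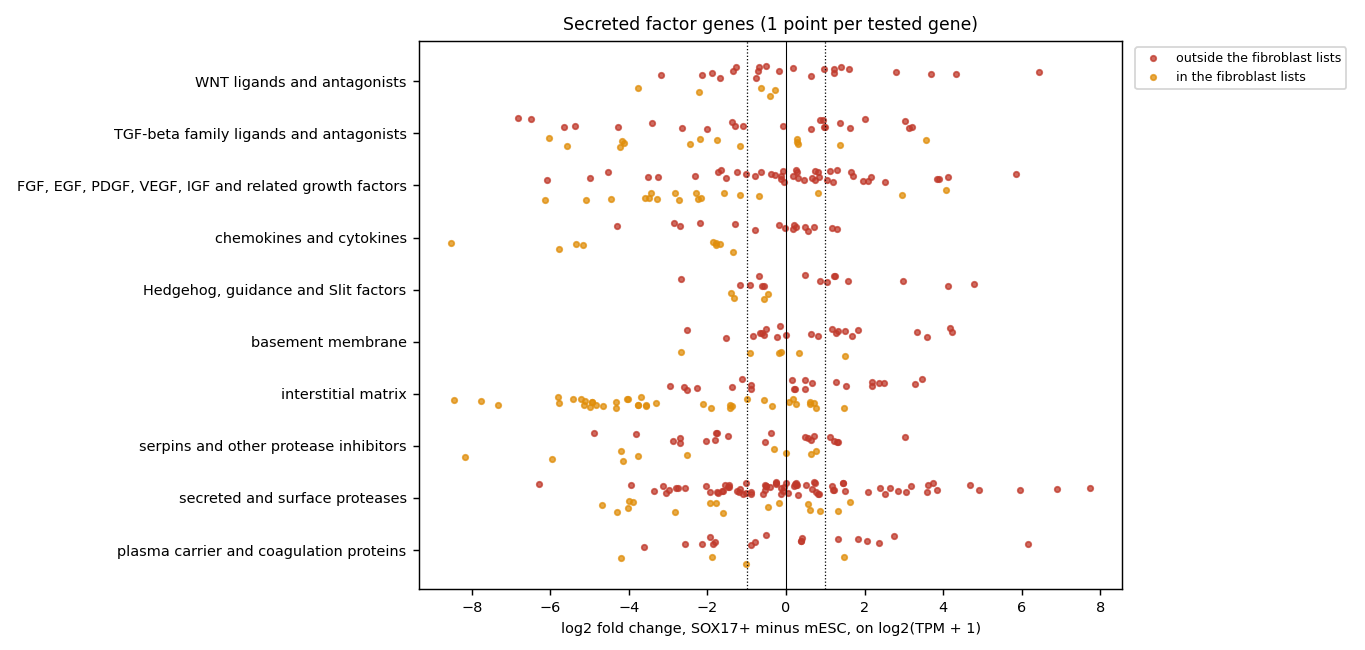
Log2 fold change of each tested secreted factor gene (x axis, SOX17+ minus mESC on log2(TPM + 1)) by list; orange points are members of the fibroblast lists, red points are not, and dotted lines mark 2-fold. Of the 167 genes at least 2-fold lower, 83 are orange, and in interstitial matrix 29 of 35.

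Genes of plasma proteins, which the later liver and yolk sac secrete, moved in both directions. Ttr, the thyroxine carrier transthyretin, was at 0, 0 and 0.128 TPM in mESC and at 65.8, 82.3 and 72.4 TPM in SOX17+ cells, with 1.22 TPM in T+. Rbp4, its partner, rose from 2.1 to 10.1 TPM, and the clotting factor gene F10 was listed at 0 in mESC and at 5.76 TPM in SOX17+ cells. F3, which starts clotting, fell from 38.4 to 2.2 TPM with a ratio between mESC libraries of 0.96. Of 22 genes 7 were at least 2-fold higher and 9 lower. Markers of visceral and parietal endoderm, cell types outside the embryo proper, share Ttr and Hnf4a with liver. They summed to between 924 and 982 TPM in SOX17+, 771 and 910 TPM in mESC and 333 and 350 TPM in T+. The sums hide changes in both directions: of the 14 tested, 6 were at least 2-fold higher than in mESC and 3 lower. Against T+ cells 10 of the 14 were at least 2-fold higher and 0 lower.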

How the data were processed

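Poly(A) RNA was sequenced from stranded libraries as paired ends, per the labels' protocols. The submitters' processing notes name cutadapt, STAR, StringTie and the builds mm10 and GRCm38, with no role or order, and no source used here gives the annotation release. Values are the TPM that the authors deposited, normalized within each library. TPM keeps no read depth, so depth and the counting error behind a value are unknown.

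Rows were summed per gene identifier, and genes with at least 1 TPM in 3 or more of the 12 libraries were tested. log2(TPM + 1) was fitted with limma 3.58.1 (R 4.3.3, trend and robust) with 1 mean per group over all 12 libraries, 8 residual degrees of freedom, and 2-sided tests with Benjamini-Hochberg adjustment over all 16097 genes. Calls had an adjusted p below 0.05. Differences from T+ cells came from the same fit.

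The members of the 53 lists, the pairs and the rules were chosen with earlier results of these data known. Genes named were, per list, up to 6 largest rises and 6 largest falls among called genes with at least 5 TPM in the higher group, the 3 most abundant members, members of the pairs, the reporter genes, and, outside all lists, the 15 largest rises and falls with at least 20 TPM and no overlap of libraries. Mvd, Nsdhl, Lum and Ftl2-ps fall outside this rule and were chosen after their values were seen. Some genes that the rule selects are not reported here. Promoter sequences are RefSeq's, and motifs were searched on both strands. Alternatives covered the pseudocount, the filter, the scaling, the libraries in the fit, a replicate block and limma's variance model.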

Additional observations from a re-analysis of the deposited data

How the results depend on the processing

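The counts of genes at least 2-fold higher or lower depended mainly on the pseudocount. With a pseudocount of 5 in place of 1, 947 genes were at least 2-fold higher and 1818 lower, against 1777 and 3291, and the areas gave 42 transporter genes higher and 40 lower, 14 chromatin genes higher and 107 secreted factor genes lower. With TPM of at least 5 in 3 libraries 48 transporter genes were lower. The other counts under these and the other alternatives stayed within 1.5 times their value. Leaving out 1 library at a time gave between 13374 and 13487 called genes, between 1718 and 1802 at least 2-fold higher and between 3219 and 3343 at least 2-fold lower. The replicate numbers are shared by the groups, and whether same-numbered libraries were made together is not stated. Deviations of same-numbered SOX17+ and mESC libraries correlated at 0.064, 0.012 and 0.124, and those of differently numbered ones between -0.130 and 0.090. With 3 libraries per group these values cannot decide whether the libraries were paired. With the replicate number as a block 13868 genes were called, against 13746 without it. Of 3787 values of 237 of the genes named, over all alternatives, 3768 kept their direction and their side of the threshold. Smarca4 and Sdc1 changed sign with quantile normalization (0.06 and 0.15). Smarca4 and T (0.37 with a pseudocount of 5) were not called under 1 or more alternatives, and Cox7a2, Cpt1c, Dnmt3b, Paics, Sdc1, Sdc4 and Slc7a5 passed the test under at least 1. Read depth is unknown, so a value listed at 0 has no detection limit.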
